A study of Mus musculus with 4 samples.

Results

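The 10 genes described here encode receptors through which hepatocytes receive hormones and growth factors: Avpr1a, Adra1b, Agtr1a, Gcgr, Ghr, Prlr, Lepr, Insr, Egfr and Met. They were found by matching these symbols to the gene names printed in the scanner tables, and they are 10 of 20526 genes with a probe well above background on at least 1 array. The array carries 25 probes for them among 56605. Avpr1a was put on the list because its signal was so much lower in the knockout, so its genotype values are given as a description and support nothing. The other 9 were chosen as receptors, with earlier results of these data known.

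RNA came from primary hepatocytes of C57BL/6 mice that had been in culture for 24 h from seeding, and 4 groups were each measured on 1 array. Drp1LiKO cells came from mice with floxed alleles of Drp1, the mitochondrial fission protein encoded by Dnm1l, and with Cre driven by the albumin promoter, which is active in hepatocytes. Control cells came from flox/flox littermates, which the labels call wild-type, and the study's methods name male mice. Within each genotype 1 culture was left untreated and another received 200 µM palmitate, a saturated fatty acid. All 4 cultures grew in medium with 4500 mg/L glucose, 1 µM insulin and 10% fetal bovine serum, so insulin was present in every group. The age of the mice, the length of the palmitate exposure on these arrays, the vehicle of the untreated cells and the number of mice behind an array are not given in the sources used here. According to its label, the raw data of the untreated control array are shared with another series. Both untreated arrays share 1 slide and both palmitate arrays the other slide, so genotypes were compared within a slide, whereas palmitate and slide cannot be told apart.

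Hepatocyte receptors fall into a few families by the signal they send. The receptors for vasopressin, for adrenaline at alpha-1 sites and for angiotensin couple to Gq, which activates phospholipase C, releases calcium and drives glycogen breakdown. The glucagon receptor couples to Gs and raises cyclic AMP, which switches on gluconeogenic genes during fasting. The receptors for growth hormone, prolactin and leptin have no kinase of their own and signal through JAK kinases and STAT factors, whereas the receptors for insulin, epidermal growth factor and hepatocyte growth factor are tyrosine kinases that govern metabolism and regeneration.

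Each value below is a normalized log2 intensity of 1 probe, with 0 at the 75th percentile of its array, and levels of different probes cannot be ranked against each other. With 1 array per group no test was run. The error printed after a difference is the scanner software's estimate for both spots together, which holds spot noise and no spread between mice or cultures. A gene was counted as changed when its log2 difference reached 1 in size, which is 2-fold, with its probe well above background on at least 1 of the arrays compared. All 10 receptors were represented by a probe well above background on all 4 arrays, and their probes together divide into 16 above background on all arrays, 4 on some and 5 on none.

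As a check of the labels, the brightest Dnm1l probe read 2.42 in control and 1.07 in Drp1LiKO without palmitate, and 2.43 and 1.01 with palmitate, which are 2.55-fold and 2.68-fold lower levels in Drp1LiKO. A dim second Dnm1l probe differed by −0.35 untreated, with a scanner error of 0.43, and was below background on both palmitate arrays. Which exons are floxed is not given in the sources used here, so whether either probe lies in the deleted part is unknown. The hepatocyte marker list, which includes Alb and Hnf4a, had 0 of 11 measured genes at least 2-fold lower in Drp1LiKO in either condition and 1 higher untreated (Ahsg) and 2 with palmitate (Ahsg and Cps1), and its summed level was 1381 and 1368 in control against 1425 and 1454 in Drp1LiKO. Over all genes 5.56% were at least 2-fold lower and 8.81% higher untreated, and 4.21% and 7.24% with palmitate. Markers of other liver cells differed with genotype, and their counts include genes above background in Drp1LiKO alone. Above background on all arrays and at least 2-fold higher in both conditions were 6 of 8 macrophage, 5 of 6 endothelial and 2 of 4 stellate cell and fibroblast markers. Of all genes tested in both conditions, 4.22% were higher in both. Macrophage markers were at least 2-fold higher in Drp1LiKO for 12 of 14 genes untreated and 11 of 13 with palmitate, with a summed level of 11.6 in control and 40.3 in Drp1LiKO untreated and of 14.5 and 37.5 with palmitate. The macrophage marker Adgre1 read −3.39 and −0.95 without palmitate. Of endothelial markers 10 of 12 were higher untreated, and 8 of 11 higher and 1 lower with palmitate, with sums of 1.66 and 5.46 untreated and 1.63 and 3.49 with palmitate. Of stellate cell and fibroblast markers 9 of 11 were higher untreated and 6 of 8 with palmitate, with sums of 45.3 and 62.8 untreated and 46.5 and 59.4 with palmitate, while the control arrays gave no signal well above background for Lrat and Pdgfrb, which mark stellate cells. Cholangiocyte markers had sums of 60.5 in control and 41.8 in Drp1LiKO untreated and of 57.1 and 43.6 with palmitate. Their median difference over the 4 measured genes was 0.04 untreated and −0.40 with palmitate. Of these 4, 0 were at least 2-fold lower, and 1, Krt7, was counted as higher untreated with no bound above 1-fold. Summed levels are in units of the array's 75th percentile and include probes below background on some arrays. Bright probes weigh most in a sum, so it can differ from the list's median. For the stellate cell and fibroblast list the median log2 difference over measured genes was 3.08 untreated and 2.62 with palmitate. These medians include genes whose probes were below background in control. Over the 4 genes of that list above background on all arrays the median was 1.98 untreated and 1.61 with palmitate. In RNA from a whole culture, fewer cells of a type and less RNA per cell cannot be told apart, and the part of these cells in the receptor values was not tested.

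The probe sequences on which the genotype comparison turns are shown because the Egfr and Met values differed between probes of the same gene. Why they differed was not tested, and the Egfr probes shown are annotated to different transcript variants. They are copied from the array's own annotation, 5′ to 3′, with mm9 positions. Each is given whole, at 60 bases, or by its first 30 bases, as marked.
Avpr1a, first 30 bases, chr10:121890416-121890475, plus strand: atgggcttggtaacactcacctcacagggt
Egfr transcript variant 1, from base 5869, first 30 bases, chr11:16813815-16813874, plus strand: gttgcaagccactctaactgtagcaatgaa
Egfr transcript variant 2, from base 2088, whole, chr11:16783545-16783604, plus strand: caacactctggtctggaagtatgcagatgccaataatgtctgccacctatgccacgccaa
Met, from base 6436, first 30 bases, chr6:17523765-17523824, plus strand: gagaaagctgtaatgtgaaaatcatgttct
Met, from base 1426, whole, chr6:17442312-17442371, plus strand: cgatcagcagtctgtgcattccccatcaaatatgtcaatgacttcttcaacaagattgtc

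Avpr1a, the vasopressin receptor of hepatocytes, read 1.35 in untreated control cells and −2.02 in untreated Drp1LiKO cells, and 1.88 and −1.27 with palmitate. Both control arrays lay above the 75th percentile of their array and both Drp1LiKO arrays below it. The log2 difference was −3.37 ± 0.21 without palmitate and −3.15 ± 0.21 with palmitate, which are 10.3-fold and 8.86-fold lower levels in Drp1LiKO. Before any scaling the intensity was 1234 and 133 on the untreated slide and 1558 and 194 on the palmitate slide. Its probe starts at base 2577 of the annotated transcript and was well above background on all 4 arrays, so these folds are measured on both sides. The 8 spots measured on all arrays among the 21 within 2 positions of the Avpr1a spot had genotype differences from −0.62 to 0.80 untreated and from −0.39 to 0.60 with palmitate. Of 16563 genes with a probe above background on all 4 arrays, 6 were lower by at least this much without palmitate and 4 with palmitate, Avpr1a included each time. In both conditions that held for Avpr1a and for Ccl20, a chemokine that attracts immune cells.

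**Figure D1:**
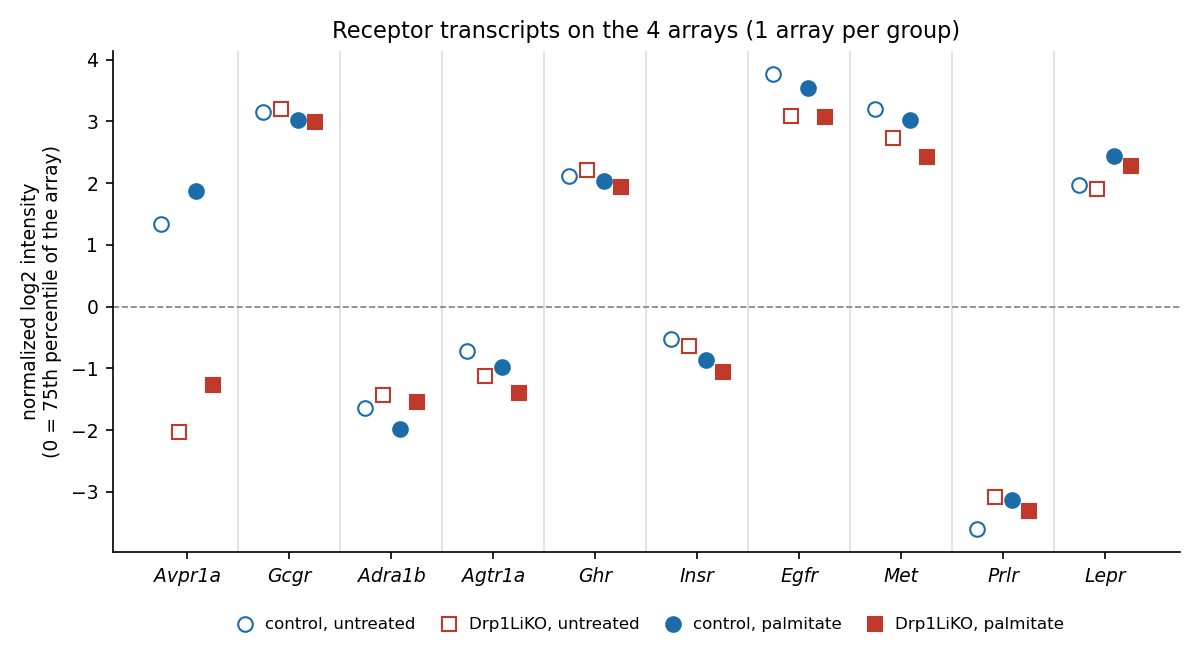
Normalized log2 intensity of the probe that represents each receptor (vertical axis, 0 is the array's 75th percentile) for the 10 receptors (horizontal axis), with open symbols for untreated and filled for palmitate, circles for control and squares for Drp1LiKO, 1 array each. The circles of Avpr1a lie at 1.35 and 1.88 and its squares at −2.02 and −1.27, while the 4 points of every other receptor span at most 0.78; heights of different genes cannot be compared.

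Of the 10 receptors, 1 was at least 2-fold lower in untreated Drp1LiKO cells and 0 were higher, where 5.56% of 19802 genes tested were lower and 8.81% were higher. With palmitate the count was again 1 lower and 0 higher, where 4.21% of 18821 genes were lower and 7.24% higher. The 1 receptor was Avpr1a both times, and since it was chosen for this difference nothing is read from the count. Both conditions together gave Avpr1a as the 1 receptor at least 2-fold lower in each and 0 as higher in each, where 1.98% and 4.22% of 18097 genes were. Among genes above background on all 4 arrays, 3.25% were lower and 3.98% higher without palmitate, and 2.4% and 2.96% with palmitate. The other 9 receptors lay between −0.69 (Egfr) and 0.52 (Prlr) without palmitate and between −0.60 (Met) and 0.43 (Adra1b) with palmitate. Of these 9, 7 were within 0.5 of zero untreated and 8 with palmitate, as were 76.8% and 82.0% of all genes above background on all arrays. The median over all 10 was −0.09 and −0.19, against −0.04 and −0.05 over those genes.

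**Figure D2:**
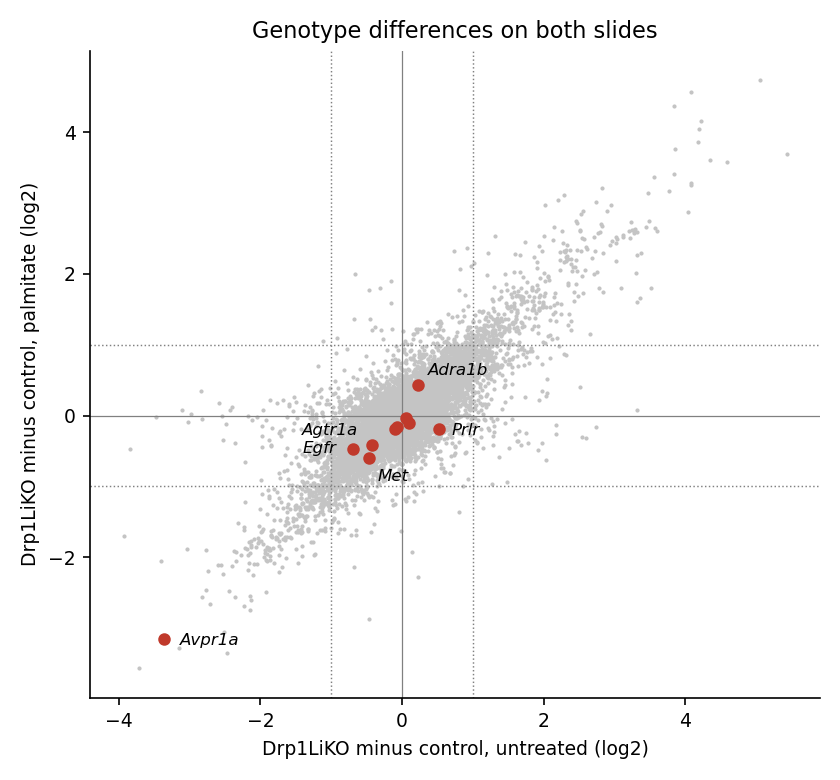
Drp1LiKO minus control in log2 units for untreated cells (horizontal axis) against palmitate cells (vertical axis); grey points are the 16563 genes above background on all 4 arrays, red points the 10 receptors and dotted lines mark 2-fold. Avpr1a lies at −3.37 and −3.15 near the lower left edge, and the 4 red points without a name, Gcgr, Ghr, Insr and Lepr, crowd around zero with the other receptors inside the dotted lines.

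Among the Gq-coupled receptors, Adra1b, which carries the adrenaline signal to glycogen phosphorylase, read −1.65 in control and −1.42 in Drp1LiKO untreated, and −1.98 and −1.55 with palmitate. Its difference was 0.22 ± 0.21 and 0.43 ± 0.22, so it was higher in Drp1LiKO on both slides, opposite in sign to Avpr1a. Agtr1a, the angiotensin receptor of hepatocytes, read −0.71 and −1.13 untreated and −0.98 and −1.40 with palmitate. It was lower in Drp1LiKO by nearly the same amount on both slides, −0.42 ± 0.21 each time. Agt, the angiotensin precursor that hepatocytes secrete, was 0.41 and 0.48 higher in Drp1LiKO.

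The list of Gq and calcium signalling genes had 32 measured genes, of which 3 were at least 2-fold lower and 3 higher in Drp1LiKO in each condition. Over all genes 5.56% were lower and 8.81% higher untreated, and 4.21% and 7.24% with palmitate. Each later list count is to be set beside these shares. Lower in both conditions with probes above background on all arrays were 3 genes. Camk2b, a calcium-dependent kinase, differed by −1.40 and −1.24, and its dim second probe, above background on 2 arrays, by −0.70 and 0.12. Plcb1, a phospholipase C that Gq activates, differed by −1.13 and −1.35, and its other probe above background on all arrays by −1.81 and −1.20. Stim1, the calcium sensor of the endoplasmic reticulum that opens store-operated entry, differed by −1.04 and −1.15, and its other probes by −0.54 and −1.06 and by −1.42 and −0.98. The 3 genes counted as higher, chosen after their values were seen, were all dim in control. Rgs2, which limits Gq signalling, was higher by 3.17 on the log2 scale untreated and at least 2.66-fold higher with palmitate, Rgs5 was at least 1.62-fold and 1.23-fold higher, and Prkcb at least 1.30-fold and 2.55-fold. The remaining core genes moved less: Gnaq, the Gq subunit itself, differed by −0.59 and −0.32, and Pygl, the liver glycogen phosphorylase, by −0.02 and −0.04. The median over the 27 genes above background on all arrays was −0.17 untreated and −0.14 with palmitate.

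Gcgr, the glucagon receptor, was among the steadiest of the receptors. It read 3.15 in control and 3.20 in Drp1LiKO untreated and 3.03 and 3.0 with palmitate, differences of 0.05 ± 0.20 and −0.03 ± 0.20. Its 4 arrays spanned 0.21, and no neighbours in their order differed by more than 2 scanner errors. In the list of Gs and cyclic AMP signalling, which also holds partners of other receptors, 4 of 25 measured genes were at least 2-fold higher and 2 lower in untreated Drp1LiKO cells. With palmitate 3 of 23 were higher and 0 lower. Ramp2, a partner of calcitonin-type receptors, was the gene of that list changed in both conditions with a probe above background on all arrays, at 1.92 and 1.16. The rest, chosen after their values were seen, passed 2-fold in 1 condition or were dim: adenylate cyclase genes Adcy4 (1.00 untreated), Adcy6 (−1.02 untreated) and Adcy7 (at least 1.66-fold higher untreated), Crtc2, a coactivator of CREB (−1.06 untreated), Pde4b, which breaks down cyclic AMP (1.05 untreated), and Prkar2b (at least 1.39-fold higher with palmitate). Adcy7 was also counted with palmitate, where its signal gave no bound above 1-fold. Among target genes of glucagon and cyclic AMP, 2 of 13 were higher and 0 lower untreated, and 4 of 13 higher and 0 lower with palmitate. Over all genes 8.81% were higher untreated and 7.24% with palmitate. The median of the 11 target genes above background on all arrays was 0.27 untreated and −0.14 with palmitate. Tat, an enzyme of tyrosine breakdown, was 1.5 and 1.22 higher. Ppargc1a, a coactivator of gluconeogenic genes, was 1.21 and 1.27 higher, and its second probe 2.05 and 1.14 higher. G6pc, which releases free glucose, differed by −0.42 untreated and was not well above background on either palmitate array. Pck1 was well above background only on the palmitate Drp1LiKO array, where it was at least 1.02-fold higher than in control. Cps1, of the urea cycle, was 0.94 higher untreated and 1.12 higher with palmitate, and it too was chosen after its values were seen.

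Among the cytokine-type receptors, Ghr, the receptor for growth hormone, was represented by a probe that read 2.12 and 2.22 untreated and 2.04 and 1.94 with palmitate. Its difference was 0.10 ± 0.20 and −0.10 ± 0.20. Another bright probe, annotated to transcript variant 1 at chr15:3268107-3268166 on the minus strand, gave −0.22 ± 0.20 and −0.37 ± 0.20, and a further one, which spans a junction of transcript variant 2, gave 0.15 ± 0.20 and 0.06 ± 0.20. A dim probe for an Ensembl transcript read −3.24 and −2.38 untreated, a difference of 0.87 ± 0.25, and −2.70 and −2.62 with palmitate, a difference of 0.08 ± 0.26. The 3 bright probes therefore differed by at most 0.37 in size, and their signs differed.

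Prlr, the prolactin receptor, was dim, with intensities of 39.8, 63.8, 48.5 and 47.1 on the untreated control, untreated Drp1LiKO, control palmitate and Drp1LiKO palmitate arrays. The normalized values were −3.61 and −3.09 untreated and −3.13 and −3.32 with palmitate, differences of 0.52 ± 0.28 and −0.19 ± 0.31. Normexp background correction brought the untreated difference to 0.10. The probe for transcript variant 2 was 0.42 ± 0.37 higher untreated and was below background on the control palmitate array, and another probe of variant 1 was above background on none.

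Lepr, the leptin receptor, is spliced into forms with different tails, and its 6 probes separated sharply. The probe that represents it, annotated to transcript variant 2 at chr4:101452666-101452725, read 1.97 and 1.91 untreated and 2.44 and 2.28 with palmitate, differences of −0.07 ± 0.20 and −0.17 ± 0.20. A further probe annotated to variant 2, at chr4:101464615-101464674, was above background on no array, as were the probe for variant 1 and those for 2 Ensembl transcripts. The variant 3 probe passed that limit in untreated control cells alone. The bright signal thus came from 1 of the 6 probes. The first 30 bases of these 2 variant 2 probes are given because the same annotated transcript was bright with the first and undetected with the second.
Lepr transcript variant 2, bright probe: aattccctcggcgcttcccttgtgaatttt
Lepr transcript variant 2, probe above background on no array: ttgggacgatgttccaaaccccaagaattg

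Of 23 JAK-STAT signalling genes, 1 was at least 2-fold higher in Drp1LiKO in each condition and 0 were lower. With palmitate this was Socs3, the feedback inhibitor of cytokine receptors, at 1.20, chosen after its value was seen. Socs3 read −0.81 and −0.79 untreated and −0.57 and 0.63 with palmitate, so its Drp1LiKO palmitate array stood above the other 3. Of 14 growth hormone and STAT5 target genes 0 were higher in either condition, and Igf1, the growth factor that liver releases under growth hormone, was the 1 that was lower, with palmitate. Igf1 read 6.02 and 5.07 untreated and 5.93 and 4.86 with palmitate, differences of −0.95 and −1.07, and its other probes gave −0.93 and −0.56, and −0.31 and −0.49. Socs2, a direct STAT5 target, was −0.73 and −0.77, with −0.86 and −1.01 from its other probe above background on all arrays. Cish, another, was −0.44 and −0.14, and Igfals, the carrier subunit of circulating growth factor, 0.12 and 0.47. The median of the list was −0.24 untreated and −0.22 with palmitate, and Egfr and Prlr are themselves on it.

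Among the tyrosine kinase receptors, Insr, the insulin receptor, read −0.53 and −0.63 untreated and −0.87 and −1.06 with palmitate, differences of −0.10 ± 0.21 and −0.19 ± 0.21. A dimmer probe in the same transcript gave 0.20 ± 0.27 untreated and was below background on the control palmitate array. Of 33 insulin signalling genes 1 was at least 2-fold lower and 0 higher untreated, and 0 changed with palmitate. That gene, Pik3r3, a regulatory subunit of phosphoinositide kinase, was at least 3.01-fold lower and was named after its value was seen. Irs2, an insulin receptor substrate, differed by −0.64 and −0.43. Among insulin target genes 3 of 16 were higher and 1 lower untreated, and 3 of 14 higher and 0 lower with palmitate. Thrsp, a lipogenic gene, was 1.04 and 1.05 higher, with 0.91 and 0.90 from its second probe. The other insulin targets named here, chosen after their values were seen, were dim. Pnpla3 was at least 3.34-fold higher untreated, Ppp1r3c at least 1.15-fold and 1.05-fold higher in the respective conditions, and Pck1 was the remaining one with palmitate.

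Egfr, the receptor for epidermal growth factor and its relatives, had the largest difference after Avpr1a without palmitate. Its brightest probe, annotated to transcript variant 1 at base 5869, read 3.78 and 3.08 untreated and 3.55 and 3.07 with palmitate. The difference was −0.69 ± 0.20 untreated and −0.47 ± 0.20 with palmitate, which are 1.62-fold and 1.39-fold lower levels. The probe annotated to transcript variant 2 at base 2088, shown above, read 2.03 and 1.98 untreated and 1.81 and 1.82 with palmitate. It differed by −0.05 ± 0.20 and 0.01 ± 0.20, and whether it reads that variant alone was not tested. Another bright probe, annotated to variant 1 at base 4235, lay between these 2 probes at −0.25 ± 0.20 and −0.35 ± 0.20. The difference of the gene therefore depended on the probe. A dim probe for a cDNA clone gave −0.23 ± 0.35 untreated and 0.45 ± 0.41 with palmitate. That probe was below background on the control palmitate array. Averaging all 4 probes, the dim one included, gave −0.30 and −0.09.

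Met, the receptor for hepatocyte growth factor, showed the same split. The probe at base 6436 read 3.20 and 2.73 untreated and 3.03 and 2.42 with palmitate, differences of −0.47 ± 0.20 and −0.60 ± 0.20. The probe at base 1426 read −1.33 and −1.31 untreated and −1.48 and −1.42 with palmitate, differences of 0.02 ± 0.21 and 0.06 ± 0.21. In both genes the probe furthest along the plus strand was lower in Drp1LiKO on both slides, and the upstream probe shown above differed by less than its scanner error. Over 5577 genes with at least 2 probes above background on all arrays, the genotype differences of the brightest and second brightest probe lay a median of 0.20 apart untreated and 0.13 with palmitate, and 90% of genes lay within 0.71 and 0.51. The gap was 0.64 and 0.48 for Egfr, larger than in 88.1% and 89.1% of genes, and 0.48 and 0.66 for Met, larger than in 80.1% and 94.3%. For Ghr it was 0.32 and 0.27, larger than in 66.7% and 73.8%.

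**Figure D3:**
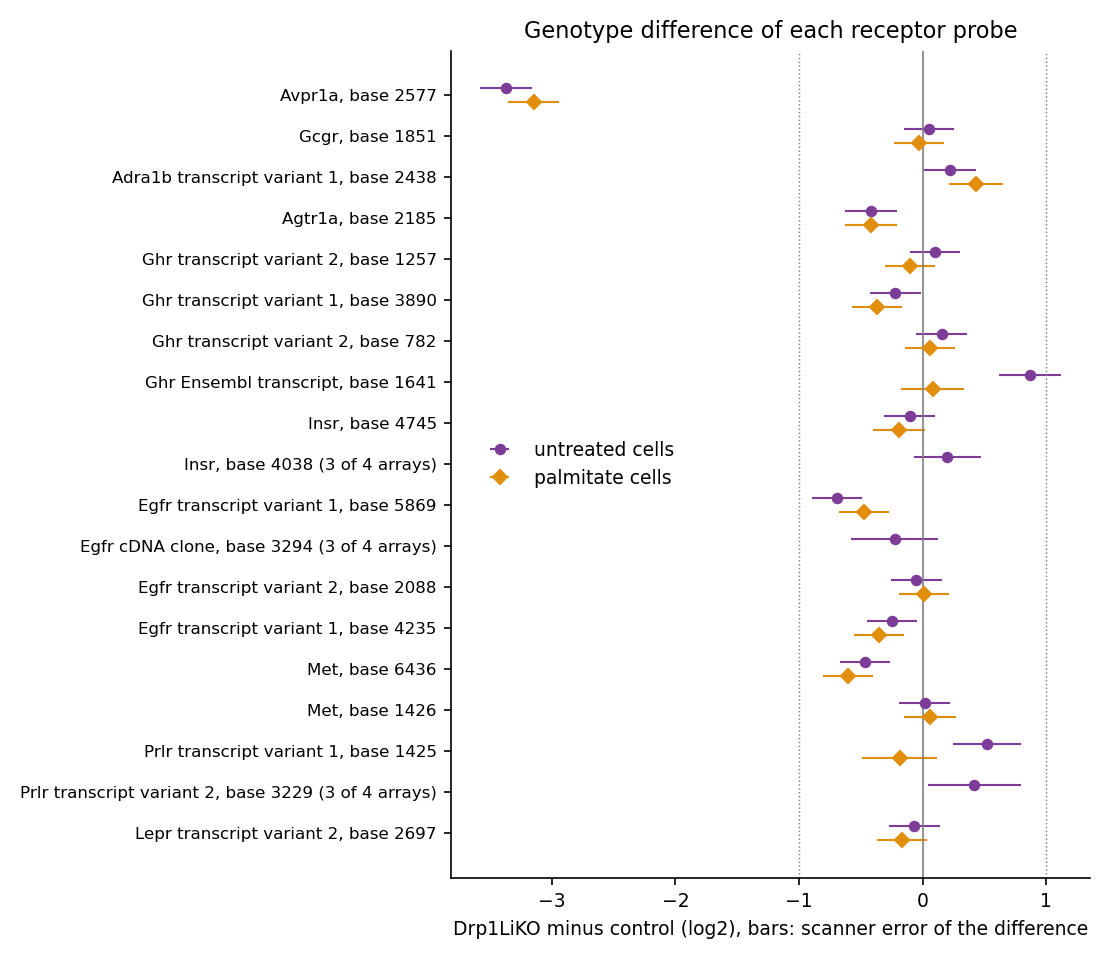
Drp1LiKO minus control in log2 units (horizontal axis) for each receptor probe, named by gene, annotated transcript and first base on it (vertical axis); circles are untreated and diamonds palmitate cells, bars are the scanner error of the difference, dotted lines mark 2-fold, and a point is drawn where both arrays compared were above background. Avpr1a stands at −3.37 and −3.15, and Egfr and Met each have a probe below zero, at −0.69 and −0.47, and another at −0.05 and 0.02 untreated.

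Ligands and relatives of these tyrosine kinases were measured on the same arrays. Areg, a growth factor that binds the epidermal growth factor receptor, read 0.21 and 2.41 untreated and −0.02 and 1.08 with palmitate, so it was 2.19 and 1.1 higher in Drp1LiKO. Ereg, another ligand, was 0.81 and 1.78 higher. Hbegf, also a ligand, was lower, at −1.01 and −0.62, and Tgfa differed by −0.05 and −0.20 and Btc by 0.44 and 0.28. Hgf, the ligand of Met and a product of stellate cells, was above background on the untreated Drp1LiKO array alone, at least 2.05-fold higher than in control. Erbb2, which pairs with the epidermal growth factor receptor, read −1.22 and −2.54 untreated and −1.11 and −2.40 with palmitate. It differed by −1.31 and −1.29, with −1.27 and −1.30 from its second probe. Its relative Erbb3 differed by −0.66 and −0.41 and Erbb4 by −0.20 and −0.16. Adrb3, an adrenaline receptor of the beta class, differed by −1.19 and −0.98.

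Of 12 measured ligands, from 19 listed, 2 were at least 2-fold higher and 2 lower untreated, and with palmitate 2 of 10 were higher and 1 lower. Of related receptors 9 of 22 listed were measured, with 0 higher and 3 of 8 lower untreated and 0 higher and 1 of 8 lower with palmitate. Over all genes 5.56% were lower and 8.81% higher untreated, and 4.21% and 7.24% with palmitate. Among those counted by bounds, and chosen after their values were seen, Prl was at least 1.48-fold and Mst1r at least 2.01-fold lower untreated. The close relatives of Avpr1a on that list, Avpr1b, Avpr2 and Oxtr, were above background on no array.

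In receptor tyrosine kinase signalling, 2 of 39 genes were higher and 1 lower untreated, and 3 of 38 higher and 1 lower with palmitate. Plau, the urokinase that activates hepatocyte growth factor, was 1.48 and 1.24 higher, and Gab2, a docking protein, 1.14 and 1.00 higher. Dusp6, the phosphatase that ERK signalling induces to limit itself, read 4.27 and 2.98 untreated and 4.02 and 2.94 with palmitate, with differences of −1.30 and −1.09. Among target genes of both growth factors 3 of 19 were higher and 3 lower untreated, and 1 higher and 2 lower with palmitate. Beside Areg, Hbegf and Dusp6 these were Egr2 (1.83), Etv4 (1.03) and Ier3 (−1.17) untreated and Egr3 with palmitate, which was at least 3.97-fold lower, and in the signalling list Dusp4 (1.04 with palmitate), all chosen after their values were seen. Of 22 other receptors of hepatocytes, among them Il6ra, Fgfr4, Nr3c1 and Asgr1, 0 changed untreated and 1 was lower with palmitate, Fgfr2 at −1.14, chosen after its value was seen. Taking the 12 pathway lists together without the 10 receptors, 5.79% of 242 genes were at least 2-fold lower and 7.85% higher untreated, near the 5.56% and 8.81% of all genes. With palmitate 3.39% of 236 were lower and 7.63% higher.

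**Figure D4:**
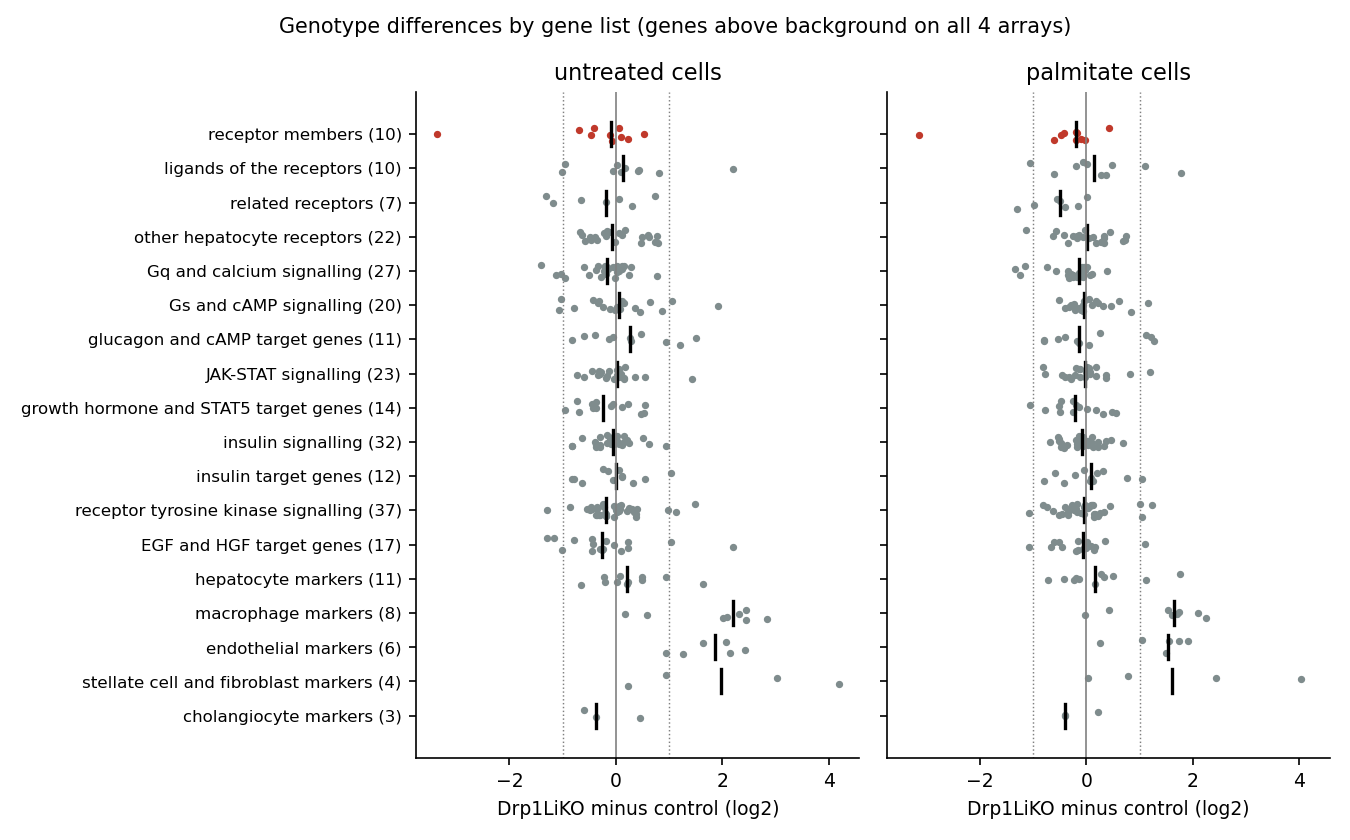
Drp1LiKO minus control in log2 units (horizontal axis) for each gene list (vertical axis, number of genes above background on all 4 arrays in brackets), untreated on the left and palmitate on the right; points are genes, black bars the list's median and dotted lines 2-fold. The receptors' median is −0.09 and −0.19 with Avpr1a alone at the far left, and macrophage, endothelial and stellate cell markers lie to the right, with medians of 2.21, 1.85 and 1.98 untreated.

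The palmitate arrays lie on the other slide, and each palmitate comparison shares its arrays with the genotype comparisons. Of the 10 receptors 0 differed at least 2-fold between palmitate and untreated cells in control, where 5.62% of 18703 genes did, 2.83% lower and 2.79% higher. In Drp1LiKO 0 did, where 7% of 19677 genes did, 3.09% lower and 3.91% higher. Avpr1a had the largest value in both genotypes, 0.53 ± 0.20 in control and 0.75 ± 0.21 in Drp1LiKO, or 1.45-fold and 1.69-fold higher with palmitate. For comparison, 95% of genes above background on all arrays lay below 0.50 in control and 0.59 in Drp1LiKO. Lepr was 0.47 ± 0.20 and 0.37 ± 0.20 higher, and 0.12 and −0.32 when its dim variant 3 probe was averaged in. Insr differed by −0.35 ± 0.21 and −0.43 ± 0.21, and Agtr1a by −0.27 ± 0.21 in each genotype. Prlr differed in sign, 0.48 ± 0.31 in control and −0.23 ± 0.27 in Drp1LiKO, both within 2 scanner errors of zero, and was 0.03 in Drp1LiKO after normexp correction. In total 7 receptors were lower with palmitate in control and 8 in Drp1LiKO, with medians of −0.15 and −0.22 against 0.01 over all genes above background on all arrays in either genotype.

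The difference between the palmitate differences, Drp1LiKO minus control, was 0.22 ± 0.29 for Avpr1a. Among the other 9 it ran from −0.71 (Prlr) to 0.22 (Egfr), and for 0 of the 10 did it reach 1, where 10.7% of 20525 genes did, or exceed 2 scanner errors.

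**Figure D5:**
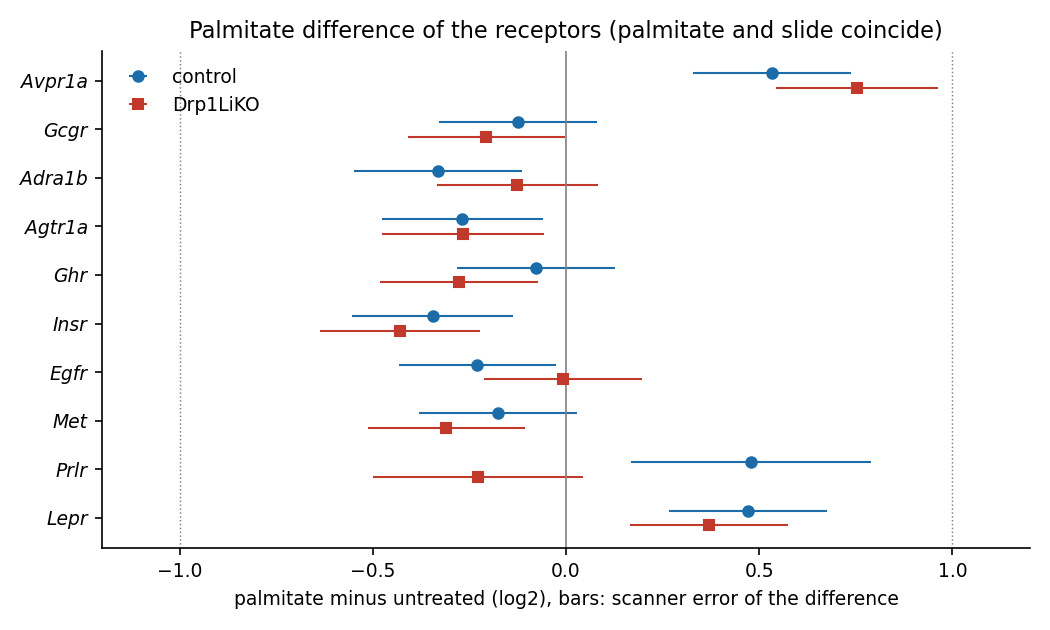
Palmitate minus untreated in log2 units (horizontal axis) for each receptor (vertical axis), circles for control and squares for Drp1LiKO, with bars for the scanner error of the difference and dotted lines at 2-fold. All points lie inside the dotted lines, with Avpr1a at 0.53 and 0.75 furthest to the right.

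Ordered over the 4 groups, Avpr1a was highest in control with palmitate, then in untreated control, in Drp1LiKO with palmitate and in untreated Drp1LiKO, with steps of 0.53, 2.62 and 0.75. Each of these 3 steps exceeded 2 scanner errors. For Egfr the step of 0.46 between the control arrays and the Drp1LiKO arrays did so and the steps within a genotype did not. Agtr1a and Met had the same order as Egfr, with both control arrays above both Drp1LiKO arrays, but no neighbouring pair differed by more than 2 scanner errors, and the same held for the other 6 receptors. The whole range over the arrays was 3.90 for Avpr1a, 0.78 for Met, 0.70 for Egfr and 0.69 for Agtr1a, and it was smallest for Gcgr at 0.21.

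The genes whose pattern over the 4 arrays was most like that of Avpr1a were found by centring each gene on its own mean and taking the largest gap on any array, among 14325 genes with a symbol and a probe above background on at least 3 arrays. The 5 nearest were Lox, Ccl20, Elmod1, Ren1 and Ska1, with largest gaps from 0.36 to 0.57. Lox, an enzyme that cross-links collagen, read −0.88 and −3.65 untreated and −0.37 and −2.83 with palmitate. Ccl20 read 0.37 and −3.34 untreated and 1.53 and −2.04 with palmitate. Ren1, the protease that cleaves angiotensinogen, read −2.38 and −4.87 untreated and −1.63 and −3.88 with palmitate, and was above background on 3 arrays. These likenesses describe 4 arrays and were picked from all genes by their closeness.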

How the data were processed

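Total RNA of cultured primary hepatocytes was labelled with Cy3, the 1 dye used, in a low-input protocol and measured on mouse arrays of 60-base probes. The labels and the study's methods name different RNA extraction kits. The deposited scanner tables hold background-subtracted intensity values on a linear scale, written by Feature Extraction 10.7.1.1 according to the file header and 9.5.1.1 according to the submitters' processing notes, with no scaling between arrays. The authors also deposited a processed intensity table, which held the rank order of the scanner values over 56603 probes and the same median log2, 4.18, on each array; it served as an alternative.

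Each intensity was set on a log2 scale relative to the 75th percentile over the non-control spots of its array (intensities of 485, 542, 424 and 468 on the untreated control, untreated Drp1LiKO, control palmitate and Drp1LiKO palmitate arrays). Spots marked as outliers were left out and repeat spots averaged. Between 25307 and 28920 of 56605 probes were well above background, and 0 were saturated on each array. Probes printed 10 times had a median SD of 0.034 to 0.038 between spots. A gene was represented by its brightest probe among those above background on at least 1 array. Folds against a probe below background are bounds, taken against the higher of its own value and the lowest value above background on that array.

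With 1 array per group no p-value was computed; an additive model over all arrays would leave 1 residual degree of freedom and was not fitted here. The script was tested on simulated data. The receptors and gene lists were chosen with earlier results of these data known. Named by rule were all 10 receptors, their ligands and related receptors by value, up to 4 genes per list that passed 2-fold with 1 sign in both conditions and had the probe above background on all 4 arrays, and the 5 genes nearest to Avpr1a in pattern. For many other genes the text says that they were chosen after their values were seen. The rest, among them Gnaq, Pygl, G6pc, Irs2, Socs2, Cish and Igfals, were named outside these rules with their values open to view. Some genes of the lists are not reported here. The alternatives were normexp background correction (limma 3.58.1 in R 4.3.3, offset 50), quantile normalization, scaling by the median or by other 75th percentiles, the authors' table, stricter and no filters on dim probes, and the mean of a gene's probes above background on at least 1 array. Tables were handled with Python 3.11.15, numpy 2.4.6 and pandas 2.3.3. Array annotation gives transcripts and mm9 positions but no exons or untranslated regions, which were not analysed here.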

Additional observations from a re-analysis of the deposited data

Results flagged for a closer look

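Igf1r, the receptor for insulin-like growth factor and a relative of Insr, had differences of opposite sign. It read −3.35 in control and −2.62 in Drp1LiKO untreated and −2.93 and −3.49 with palmitate, so the genotype difference was 0.73 ± 0.24 without and −0.56 ± 0.28 with palmitate, and the palmitate difference 0.42 ± 0.26 in control and −0.87 ± 0.26 in Drp1LiKO. The second of each pair minus the first was −1.29 both times, since both are the same combination of the 4 arrays. The difference was not tested, and the probe was dim on all 4 arrays.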

How the results depend on the processing

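Of 9 alternatives, the 2 other filters on dim probes could not move a receptor's value, since all 10 representative probes were above background on every array. The other 7, of which the authors' table gave nearly the values of quantile normalization, gave 350 receptor values. Of these, 333 moved by no more than their scanner error and 17 moved by more. A called sign changed for 0, but only the genotype differences of Avpr1a, for which it was chosen, were called. Smaller differences of Gcgr, Ghr, Insr, Egfr, Prlr and Lepr did change sign under some alternatives. Avpr1a, whose single probe the averaging of probes could not move, stayed at least 2-fold lower in Drp1LiKO under these 7, from −3.55 to −2.90 untreated and from −3.31 to −2.80 with palmitate, the smallest sizes under normexp and the largest under median scaling. Averaging the probes of a gene that were above background on at least 1 array counted 2 receptors lower in Drp1LiKO with palmitate, since Lepr, whose mean then held the bright probe and the variant 3 probe, came to −1.28. Scaling by the median moved the median of all genes by −0.18 untreated and −0.16 with palmitate in the genotype comparisons, and turned Gcgr to −0.13 and Ghr to −0.08 untreated. The same averaging turned the genotype difference of Insr to 0.05 in both conditions and that of Prlr to 0.27 with palmitate, and the palmitate difference of Lepr in Drp1LiKO to −0.32. Median scaling also made 1462 genes higher and 1466 lower untreated, against 1745 and 1101.

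Counts over all genes (2846 and 2155 between genotypes untreated and with palmitate, 1051 and 1378 between palmitate and untreated in control and Drp1LiKO) were 1043, 683, 304 and 409 under normexp. They were 1375, 932, 186 and 431 with the probe above background on both arrays, where palmitate gave 143 higher and 43 lower in control and 312 and 119 in Drp1LiKO, against 521 and 530, and 770 and 608. Without a filter they were 4637, 3894, 2844 and 3480, with 1929 higher and 915 lower, and 2416 and 1064, for palmitate. Counts over the pathway lists (33, 26, 4 and 16) were 11, 10, 1 and 6 under normexp. For palmitate they were 0 and 8 with both arrays above background, 11 in control without a filter and 7 in control with averaged probes. The causes were not tested, but the filters change which genes are counted.

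No paired analysis was possible because each group has 1 array, so that no 2 groups share more than 1 replicate number; the slides pair the genotypes, and an additive model with slide as a term would leave 1 residual degree of freedom and was not fitted. Leaving an array out would remove its whole group. The scaling by averaged probes was added after seeing the data. Signal over background limits Prlr most.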
